A study of Mus with 3 samples.

Results

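The genes for 6 chemokine receptors, Cxcr3, Cxcr4, Cxcr6, Ccr2, Ccr8 and Cx3cr1, were followed across the T cells and myeloid cells of MC38 tumors. They were taken by name from the 32285 genes of the single-cell count matrix, and all 6 were found there. Chemokine receptors are G protein-coupled receptors on the cell surface. They sense gradients of small secreted proteins, the chemokines, and steer leukocytes into, within and out of a tissue. In tumors, Cxcr3 is known as the receptor of effector T cells for the interferon-induced ligands Cxcl9 and Cxcl10, and Cxcr6 as the receptor for Cxcl16, which dendritic cells and macrophages display. Ccr8, the receptor for Ccl1 and Ccl8, marks tumor regulatory T cells. Ccr2, the receptor for Ccl2, Ccl7 and Ccl12, recruits monocytes, Cxcr4 binds Cxcl12, and Cx3cr1 binds fractalkine, the product of Cx3cl1.

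MC38 is a mouse colon adenocarcinoma line, and the tumors were taken on day 16 after injection of the line into 3 kinds of mice. RARα-KO mice carried a floxed Rara, which encodes the retinoic acid receptor RARα, and a Cre driven by the distal Lck promoter, so that the deletion was aimed at T cells. RARα-TG mice expressed Rara from the CD2 promoter, and C57BL/6 or dLck-Cre mice were the WT strains; which of the 2 strains gave these cells, and the number of mice behind them, were not given in the sources used here. The study describes mostly age-matched young adult mice of both sexes, with a later focus on males for most experiments. Neither age nor sex was stated for these tumors. The tumor cells were first marked with a hashtag antibody (C0301, C0302 and C0303 in the order WT, RARα-KO, RARα-TG). Per genotype, 30000 CD45.2+ CD3+ T cells were then sorted and mixed with 10000 unsorted cells of the same tumor suspension. The mixtures were pooled and sequenced for RNA and T cell receptors. Each genotype was therefore 1 sample, and where 3 values follow each other below they are in that order. GEO's sample labels give spleen as the tissue and activated naive CD8 T cells as the cells, whereas the protocol in the same labels describes the tumors, and the counts held macrophages, dendritic cells and 531 cells of a cluster led by Ccn1, Col3a1 and Sparc.

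Of 5586 barcodes called as cells, with a median of 4822 unique molecular identifiers (UMIs), 4930 carried the hashtag of 1 genotype (1928, 2107 and 895 cells). T cell clusters were the 11 of 18 clusters in which over 50% of barcodes had a T cell receptor clonotype. CD8 T cells (842, 1180 and 113) had a Cd8a UMI and no Cd4 UMI, and CD4 T cells had a Cd4 UMI and no Cd8a or Cd8b1 UMI. The latter were split by 1 or more Foxp3 UMIs into Foxp3-negative cells (95, 167 and 111) and Foxp3-positive cells (120, 79 and 150), Foxp3 being the defining factor of regulatory T cells. Myeloid cells (87, 163 and 45) were the macrophage and neutrophil clusters. Levels are UMIs of a gene scaled to 1000000 UMIs of the sample's class (CPM). Rara stood at 85.4, 78.6 and 191 CPM in CD8 T cells; the gene is counted whole, so its level does not check the deletion.

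Where the genes lie was read from RefSeq on GRCm38. Ccr2 (chromosome 9, 124101918 to 124109140) lies among other chemokine receptor genes, and reads of stretches that it shares with a related gene could be split between them. Cxcr6 (chromosome 9, 123806477 to 123811754) sits between Fyco1 and Xcr1 in the same chemokine receptor region. Ccr8 (chromosome 9, 120092133 to 120094906) and Cx3cr1 (chromosome 9, 120048683 to 120068296) are direct neighbours. Cxcr3 is on chromosome X at 101731535 to 101734147 and Cxcr4 on chromosome 1 at 128588199 to 128592299.

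Class differences in Ccr2, Ccr8 and Cxcr6 passed the test, those in Cxcr3 and Cxcr4 among T cells did not, and myeloid cells differed from the mean of the T cell classes in 5 of the 6 genes. The differences were tested over the 3 tumors on UMI sums per tumor and class, with edgeR's quasi-likelihood test, the tumor as a block and Benjamini-Hochberg adjustment over all genes tested, at an adjusted p below 0.05. Since the 3 tumors are of 3 genotypes, these p-values measure how alike the class difference was in the 3 samples. Cx3cr1 was too low for the test between T cell classes, which ran on 6733 genes, and the other 5 members passed the filter. All 6 passed in the test of myeloid against T cells, on 7302 genes.

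**Figure D1:**
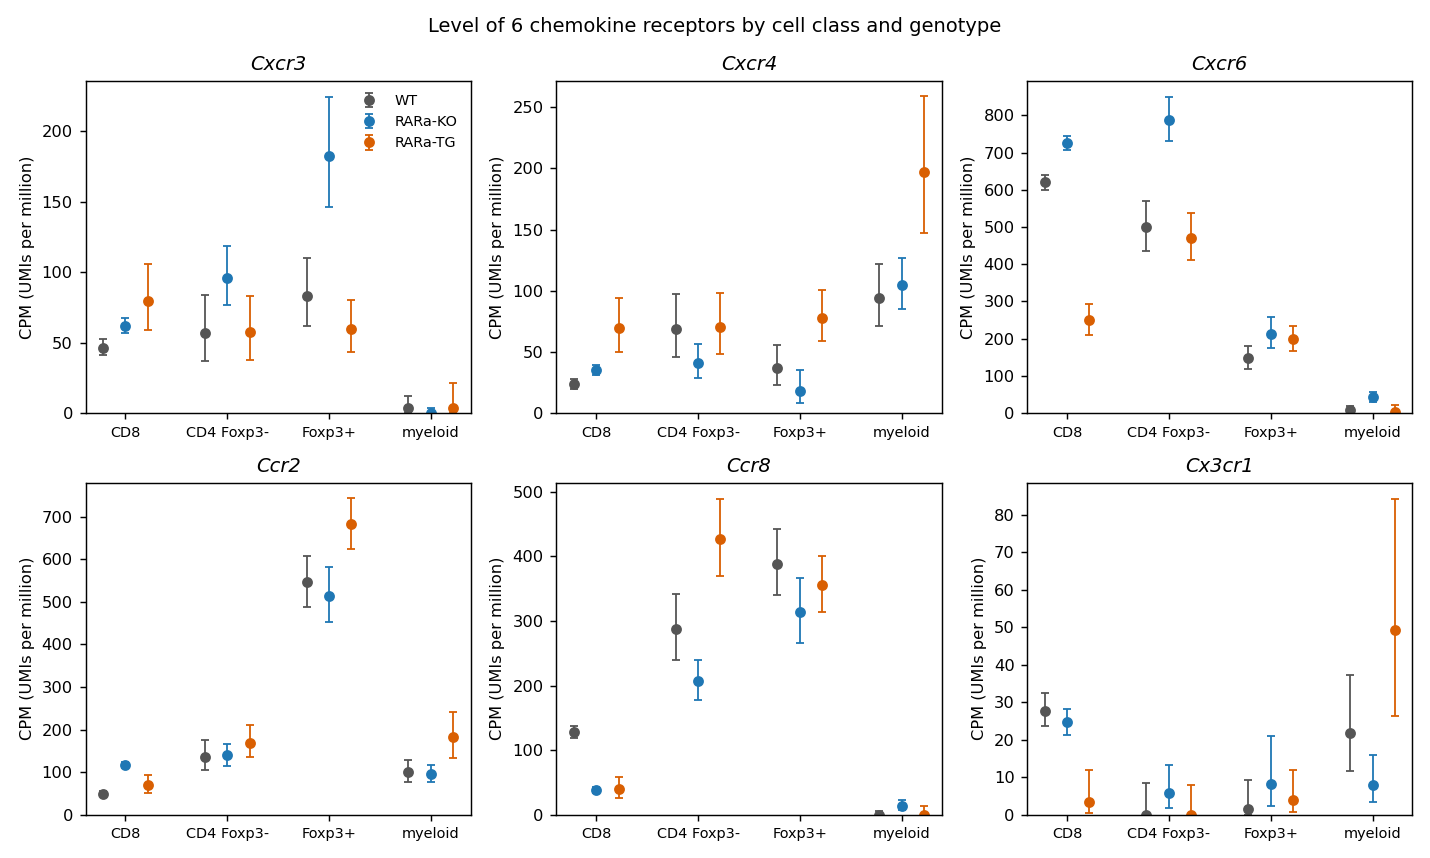
Level of each receptor in CPM (vertical axis, from 0) in the 4 cell classes (horizontal axis), with 1 point per genotype and bars for the exact Poisson 95% interval, which covers counting error only. Ccr2 was highest in Foxp3-positive cells, at 514 to 682 CPM, Ccr8 reached 426 CPM in the CD4 classes, and Cxcr6 was at most 42.2 CPM in myeloid cells.

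Ccr2 set the Foxp3-positive cells apart. Its level was 545 CPM (95% interval 488 to 608) in WT Foxp3-positive cells, 514 for RARα-KO and 682 for RARα-TG. In Foxp3-negative CD4 T cells it was 137, 139 and 170 CPM, and in CD8 T cells 49.7, 117 and 69.7 CPM. The classes did not overlap, and the level was higher in Foxp3-positive than in Foxp3-negative CD4 T cells of each tumor, by 1.99 ± 0.24 on the log2 scale (SE, adjusted p = 0.000489). Against Foxp3-positive cells, CD8 T cells were at -2.78 ± 0.24 (adjusted p = 8.67e-06). A Ccr2 UMI was seen in 80%, 81% and 80.7% of Foxp3-positive cells, and in 38.7%, 36.7% and 46.0% of them once each cell was thinned to 1000 UMIs. In sums over a class, fewer cells with a transcript and fewer transcripts per cell cannot be told apart, which is why such shares are given. The difference between CD8 and Foxp3-negative CD4 T cells, -0.80 ± 0.24, did not pass (adjusted p = 0.0758). Of the Ccr2 UMIs of Foxp3-negative CD4 T cells, 38 of 60 in WT lay in cluster 10, which Foxp3 leads. In RARα-TG, 59 of 80 lay in cluster 14. Inside cluster 1, the most common cluster of this class, Ccr2 was 32.2, 120 and 16.5 CPM. In WT and RARα-TG that was below the level of CD8 T cells.

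Ccr8 marked both CD4 classes rather than the Foxp3-positive one alone. Its levels were 389, 313 and 355 CPM in Foxp3-positive cells and 287, 207 and 426 CPM in Foxp3-negative CD4 T cells. These 2 ranges overlap, and the difference of 0.22 ± 0.32 (log2, SE) did not pass (adjusted p = 0.748). CD8 T cells lay below both, at 128, 38.2 and 39.8 CPM and log2 differences of -2.28 ± 0.33 against Foxp3-positive (adjusted p = 0.000392) and -2.06 ± 0.33 against Foxp3-negative CD4 T cells (adjusted p = 0.00318).

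Cxcr6 ran the other way. It stood at 620, 726 and 249 CPM in CD8 T cells and at 499, 789 and 471 CPM in Foxp3-negative CD4 T cells, against 147, 213 and 199 CPM in Foxp3-positive cells. All Foxp3-positive values lay below all values of the other T cells. The level in Foxp3-positive cells was lower than in Foxp3-negative CD4 T cells, at a log2 difference of -1.60 ± 0.27 (adjusted p = 0.00329), and CD8 T cells exceeded Foxp3-positive cells by 1.55 ± 0.27 (adjusted p = 0.00136). Without the RARα-KO tumor the first of these differences no longer passed (adjusted p = 0.0624). CD8 and Foxp3-negative CD4 T cells differed by -0.06 ± 0.25, which did not pass (adjusted p = 0.939).

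Cxcr3 and Cxcr4 gave no called difference between T cell classes. Cxcr3 lay between 46.3 and 182 CPM and Cxcr4 between 18.4 and 77.6 CPM over the 9 T cell samples. CD8 T cells stood at -0.71 ± 0.28 against Foxp3-positive cells for Cxcr3 (adjusted p = 0.0894), a difference that passed without the RARα-TG tumor (adjusted p = 0.000632), without T cell clusters 2 and 5, which held a natural killer marker (0.000365), with cells thinned to 1000 UMIs (0.0321) and with no filter on low counts (0.00443). Without those 2 clusters, Cxcr3 was also called higher in Foxp3-positive than in Foxp3-negative CD4 T cells (adjusted p = 0.0223, against 0.325 with them). Of the 5 members tested, 1 was higher and 1 lower in Foxp3-positive than in Foxp3-negative CD4 T cells, beside 5.45% and 4.2% of all genes. In CD8 against Foxp3-negative CD4 T cells 0 were higher and 1 was lower (2.88% and 4.69% of all genes), and in CD8 against Foxp3-positive cells 1 was higher and 2 were lower (11.2% and 12.6%).

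Myeloid cells shared Cxcr4 and Ccr2 with T cells and had little of the other members. Cxcr4 was 94.0, 105 and 197 CPM in myeloid cells, above the mean of the T cell classes by 1.96 ± 0.21 on the log2 scale (adjusted p = 3.66e-06). Both macrophages, at 113 CPM over the 3 tumors, and neutrophils, at 140 CPM, carried it. Cx3cr1, which marks monocyte-derived and resident macrophages, was 21.8, 8.04 and 49.4 CPM, higher than the mean of the 3 T cell classes by 2.12 ± 0.71 (adjusted p = 0.0236). It was not higher than in CD8 T cells of every tumor, since those stood at 27.8, 24.7 and 3.32 CPM, above the myeloid cells in WT and RARα-KO. That call was lost without the WT tumor (adjusted p = 0.109) and without the RARα-TG tumor (0.0740). Lower than the T cell mean were Cxcr3, at -5.07 ± 0.67 (adjusted p = 2.3e-05), Ccr8, at -4.23 ± 0.63 (7.42e-05) and Cxcr6, at -3.75 ± 0.40 (3.4e-06). Ccr2, at 101, 95.5 and 182 CPM, did not differ from the T cell mean past the threshold (-0.18 ± 0.22, adjusted p = 0.535). In all, 2 members were higher and 3 lower of 6, where 26.9% and 24.1% of all genes were.

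A background level was read from the MC38 or stromal cluster, whose cells should lack these receptors. Over its 443 cells with 1 hashtag, whose median depth was 28362 UMIs against 5667.5 in WT CD8 T cells, the levels were 0.447 CPM for Cxcr3, 0.522 for Cxcr4, 3.95 for Cxcr6, 2.01 for Ccr2, 1.42 for Ccr8 and 0.149 for Cx3cr1. Cxcr6 UMIs were seen in 3.39% of these cells, and once thinned to 1000 UMIs at most 1.44% of a genotype's cells had a UMI of a given member. Cx3cr1 in CD4 T cells was 0 to 8.19 CPM, with at most 5 UMIs a sample. Its interval lay above that of the MC38 or stromal cluster (0.0181 to 0.539 CPM) in RARα-KO Foxp3-negative cells (from 1.85 CPM) and in RARα-KO and RARα-TG Foxp3-positive cells (from 2.23 and 0.842 CPM), and reached into it in the other 3 samples. The cells of that cluster were deeper, so an equal number of background UMIs per cell gives a lower CPM in them. Its 2 Cx3cr1 UMIs were in 1 cell. The comparison therefore does not place the Cx3cr1 UMIs of CD4 T cells above their background. The 4 UMIs of RARα-KO Foxp3-positive cells were in 1 cell. Dendritic cells held Cxcr4 at 64.5 CPM, Ccr2 at 30.5 and Cxcr3 at 23.4 CPM over the 3 tumors, and no UMI of Ccr8 or Cx3cr1. They joined 2 clusters. All 20 Cxcr3 UMIs were in cluster 16 (Ly6d, Siglech), and 23 of the 26 Ccr2 UMIs in cluster 13 (H2-Eb1, H2-Aa).

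Within the T cells, the members were spread unevenly over clusters that had been formed without these 6 genes. Cxcr6 reached 1026 CPM in cluster 15 (Serpine2, Prf1 and Gzmb, cytotoxic genes, among its leading genes) and 963 CPM in cluster 5 (Ccl5, Gzmk), and only 55.9 CPM in cluster 3, led by Klra7 and holding Tcf7 and Lef1, factors of naive and memory T cells. Cxcr4 showed the opposite order across those clusters, with 122 CPM in cluster 3, 34.3 in cluster 5 and 18.4 in cluster 15, and its lowest level of 9.91 CPM in cluster 6, which is led by the granzyme genes Gzmf, Gzmd and Gzme. Cxcr3 was 164 CPM in cluster 2 (S1pr1, Tcf7) and 157 CPM in cluster 8, led by the interferon-induced Ifit1, but 20.3 CPM in cluster 6. Ccr2 was 770 CPM in cluster 14 (Rln3, Klrg1, Il10) and 530 CPM in cluster 10, which Foxp3 leads. Ccr8 was 348 and 334 CPM in clusters 10 and 14 and 306 CPM in cluster 1, led by Tnfsf8, Tnfsf11 and Cd4. Cx3cr1 was 35.2, 31.7 and 31.0 CPM in the cytotoxic clusters 15, 5 and 6 and at most 14.9 in the other T cell clusters. Cluster levels pool the genotypes, and some clusters came mainly from 1 of them. Cluster 15 held 19 WT, 289 RARα-KO and 0 RARα-TG cells, and cluster 14 held 8, 4 and 257.

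**Figure D2:**
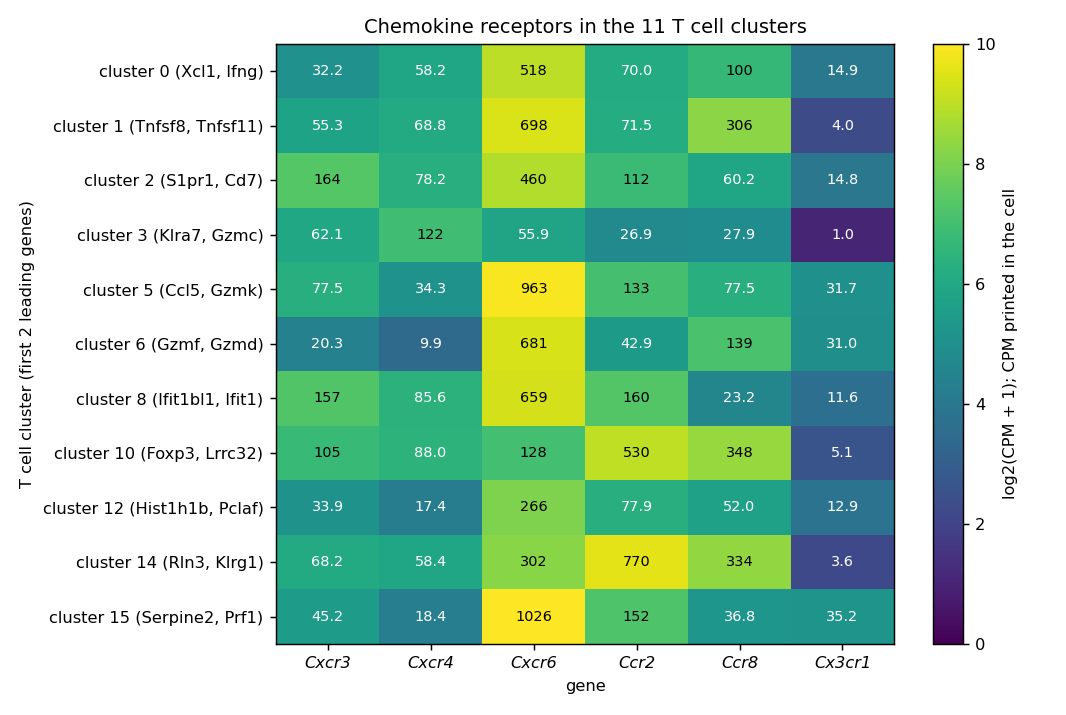
Level of each receptor (columns) in the 11 T cell clusters (rows, named by number and 2 leading genes); the colour is log2(CPM + 1) and the CPM is printed in each cell. The Cxcr6 column peaks in cluster 15 at 1026 CPM, the Ccr2 column in cluster 14 at 770 CPM, and the Cxcr3 column in cluster 2 at 164 CPM. Cells of all genotypes are pooled.

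The genotypes filled these clusters differently. Of WT CD8 T cells, 38.0% lay in the granzyme cluster 6, against 9.32% of RARα-KO and 1.77% of RARα-TG. RARα-KO CD8 T cells lay most often in clusters 5 (23.6%) and 15 (23.0%), and RARα-TG CD8 T cells in clusters 2 (56.6%) and 3 (21.2%). Foxp3-negative CD4 T cells were led by cluster 1 in all 3 (52.6%, 67.1% and 42.3%). Others lay in the Foxp3-led cluster 10 (22.1%, 7.19% and 13.5%), and 18.0% of those of RARα-TG in cluster 14. Inside cluster 1, Ccr2 of Foxp3-negative CD4 T cells was 32.2, 120 and 16.5 CPM. Foxp3-positive cells lay in cluster 10 in WT (91.7%) and RARα-KO (92.4%), but in cluster 14 in RARα-TG (64.7%, with 29.3% in cluster 10).

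Since each genotype was 1 sample, its levels were compared with WT without a test. The log2 ratios below carry exact 95% intervals of counting error, which do not cover differences between mice, and a member is counted as past the fold at 1.5-fold or more in CPM, among genes with 20 or more UMIs over both samples. Clusters 2 and 5 had Gzma, a marker on the natural killer list, among their 10 leading genes, so CD8 values are also given by cluster and without these 2 clusters. Like the other T cell clusters, they had no gene of the T cell list among these 10. They did have T cell receptor V genes there, Trbv17 and Trbv12-1 in cluster 2 and Trbv16 in cluster 5. A clonotype was found in 84.9% and 82.4% of their barcodes. The 5 natural killer markers summed to 1067, 1092 and 904 CPM in CD8 T cells, with 3, 3 and 4 of them detected, and their part in the ratios was not tested.

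In RARα-KO CD8 T cells, Ccr8 was lower and Ccr2 higher than in WT. Ccr8 was 128 CPM (119 to 138) in WT and 38.2 CPM (34.1 to 42.7) in RARα-KO, a log2 ratio of -1.75 (-1.94 to -1.55). Its UMIs were seen in 35.9% of WT and 13.2% of RARα-KO CD8 T cells, and in 12.5% and 3.23% after thinning. Ccr2 was 49.7 CPM (44.1 to 55.9) in WT and 117 (109 to 124) in RARα-KO, a log2 ratio of 1.23 (1.04 to 1.43), and was seen in 4.75% and 10.4% of thinned cells. Neither interval reached 0, and without clusters 2 and 5 the ratios were -2.05 and 1.56. These 2 were the members past the fold, 1 higher and 1 lower of 6, beside 7.02% and 6.69% of all genes.

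Both differences were also present inside single clusters. Ccr8 was lower in RARα-KO than WT CD8 T cells in 5 of the 5 clusters that could be compared, with the interval below 0 in 4 and ratios from -2.56 to -0.25. In the granzyme cluster 6 it was 43.1 against 170 CPM, in cluster 0 (Xcl1, Ifng) 56.4 against 237 CPM, and in cluster 2 19.9 against 118 CPM; the smallest difference was in cluster 5, at 67.0 against 79.8 CPM. Ccr2 was higher in 6 of 6 clusters, with the interval above 0 in 5 and ratios from 0.31 to 1.58. Each of the 2 differences thus had 1 direction in all clusters compared. By contrast, Cxcr6, whose ratio over all CD8 T cells was 0.23 (0.17 to 0.29), was higher in 2 clusters and lower in 4, from -0.35 to 0.29. Cxcr3, at 0.41 (0.20 to 0.64) over all clusters, was higher in 3 and lower in 3 clusters. Its interval was above 0 in 3 and below 0 in 1, with ratios from -0.56 to 2.36. The Cxcr3 ratio was 0.02 (-0.22 to 0.27) without cluster 6 but 0.77 (0.45 to 1.09) without clusters 2 and 5. Cxcr4 was at 0.57 (0.27 to 0.88) over all clusters, 0.04 without cluster 6 and 0.59 (0.21 to 0.99) without clusters 2 and 5. Cluster by cluster it was higher in 5 of 6, with the interval above 0 in 2 and below 0 in none. Cx3cr1 stood at -0.17 (-0.48 to 0.14).

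RARα-TG CD8 T cells, only 113, had less Cxcr6, Ccr8 and Cx3cr1 than WT and more Cxcr3 and Cxcr4. Cxcr6 was 249 CPM (211 to 292) against 620 (599 to 641), a log2 ratio of -1.32 (-1.56 to -1.08), and 24.3% against 40.7% of thinned cells. Ccr8 was 39.8 CPM (-1.69, -2.34 to -1.10). Cx3cr1 rested on 2 UMIs in RARα-TG, 3.32 against 27.8 CPM (-3.07, -6.12 to -1.19). Cxcr3 was 79.6 against 46.3 CPM (0.78, 0.31 to 1.23) and Cxcr4 69.7 against 23.7 CPM (1.56, 1.02 to 2.07). With cells thinned to 1000 UMIs the ratios were -0.054 (-1.33 to 1.01) for Cxcr3 and 0.81 (-0.76 to 2.12) for Cxcr4. Without cluster 6 they were 0.26 (-0.23 to 0.72) and 0.93 (0.38 to 1.45). With equal weight per clonotype they were 0.57 (-0.01 to 1.13) and 0.72 (0.03 to 1.40). Before these changes the count was 2 higher and 3 lower of 6, beside 14.6% and 17.7% of all genes.

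Inside cluster 2, which held most RARα-TG CD8 T cells, Cxcr6 was 311 against 611 CPM in WT (-0.97, -1.32 to -0.64) and Ccr8 37.2 against 118 CPM (-1.66, -2.72 to -0.74). Cxcr3 in the same cluster was 115 against 127 CPM (-0.14, -0.77 to 0.45) and Cxcr4 74.5 against 51.8 CPM (0.52, -0.32 to 1.35). The lower Cxcr6 and Ccr8 were therefore seen inside the cluster, and the intervals of Cxcr3 and Cxcr4 spanned 0 there. In cluster 3 the Cxcr6 ratio was 1.70 (0.53 to 2.99), the reverse of the class as a whole. Cxcr3 was reversed there too, at 17.4 against 96.4 CPM (-2.47, -4.85 to -0.72), but the RARα-TG value came from 3 UMIs in 24 cells. In neither of the clusters compared was Cxcr3 above WT, and only the interval in cluster 3 was clear of 0. Without clusters 2 and 5 the ratios over the class were -1.76 for Cxcr6, -1.59 for Ccr8, 1.80 for Cxcr4 and 0.38 (-0.72 to 1.31) for Cxcr3. Macrophage markers summed to 562.5 CPM in RARα-TG CD8 T cells against 92.8 in WT and 52.5 in RARα-KO; 6 of 14 markers were detected, mainly Fcer1g (224 UMIs in 14 cells) and Tyrobp (103 UMIs in 8 cells), and Csf1r, Adgre1, Apoe, Cd14 and C1qa were at 0. Their part in these ratios was not tested.

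**Figure D3:**
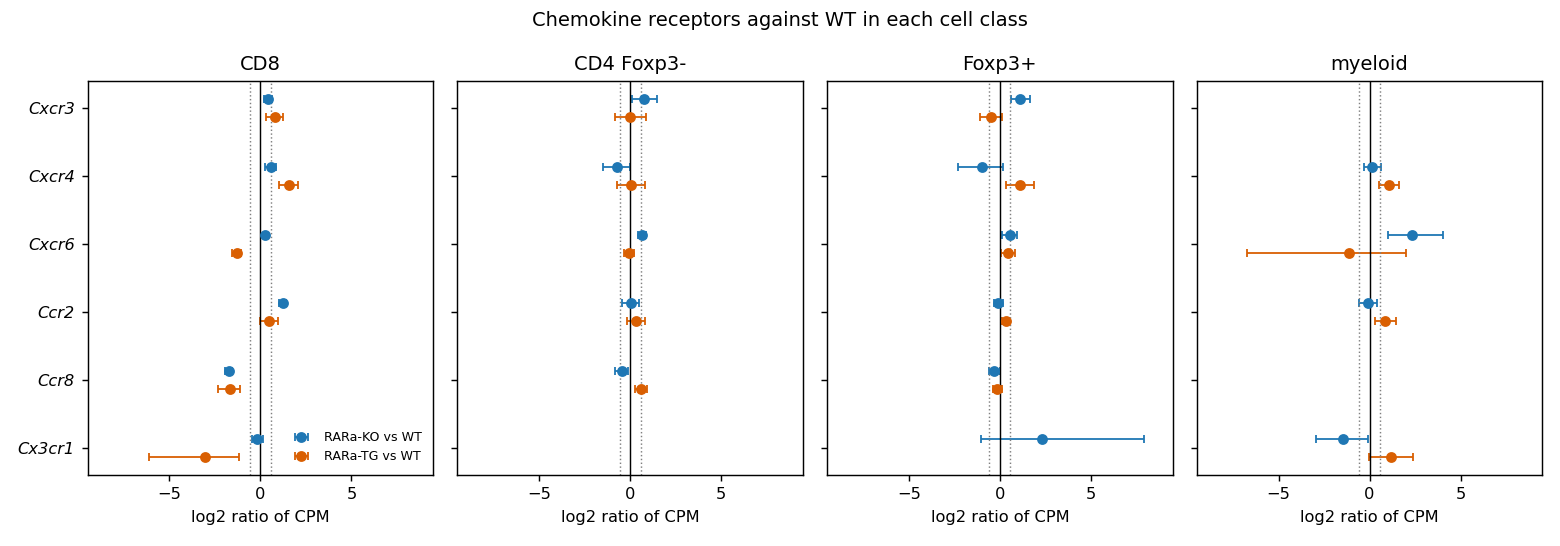
Log2 ratio of CPM against WT (horizontal axis) for each receptor (rows) in the 4 cell classes (panels), for RARα-KO and RARα-TG; bars are exact 95% counting intervals, dotted lines mark 1.5-fold, and ratios against a sample at 0, or with 3 or fewer UMIs in both samples, are not drawn. In CD8 T cells Ccr8 sits at -1.75 in RARα-KO and -1.69 in RARα-TG, while Ccr2 sits at 1.23 in RARα-KO.

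Foxp3-negative CD4 T cells showed other differences. Cxcr6 was 789 CPM (731 to 850) in RARα-KO against 499 (435 to 570) in WT (0.66, 0.44 to 0.89), and Cxcr3 95.9 (76.5 to 119) against 56.9 CPM (36.9 to 84.1), a ratio of 0.75 (0.09 to 1.46). Cxcr4 was at -0.73 (-1.47 to 0.02), Ccr8 at -0.47 (-0.81 to -0.13) and Ccr2 at 0.03 (-0.43 to 0.50). Of 5 members with enough UMIs, 2 were past the fold upwards and 1 downwards, beside 9.75% and 13.1% of all genes. Inside cluster 1 alone, Ccr8 was at -0.96 and Ccr2 at 1.90 (120 against 32.2 CPM), unlike the value over the whole class. Of the 60 Ccr2 UMIs of this class in WT, 38 were in cluster 10. Of its 80 in RARα-TG, 59 were in cluster 14. In RARα-TG, Ccr8 was 426 CPM (370 to 490) against 287 (239 to 342), a ratio of 0.57 (0.24 to 0.90), while Cxcr3, Cxcr4, Cxcr6 and Ccr2 had intervals that spanned 0. None of the 5 reached 1.5-fold, where 11.2% of all genes were higher and 12% lower.

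In Foxp3-positive cells, Cxcr3 stood out in RARα-KO and Cxcr4 in RARα-TG. Cxcr3 was 182 CPM (146 to 224) in RARα-KO against 83.4 (61.9 to 110) in WT (1.13, 0.61 to 1.66) and 59.9 CPM (43.5 to 80.4) in RARα-TG, and it was seen in 12.6%, 25.3% and 6.00% of thinned cells in the order WT, RARα-KO, RARα-TG. Within cluster 10 the RARα-KO ratio was 0.93. Cxcr4 was 77.6 CPM (58.8 to 101) in RARα-TG, 36.7 (23.0 to 55.5) in WT and 18.4 (8.43 to 35.0) in RARα-KO, at ratios of 1.08 (0.35 to 1.86) for RARα-TG and -0.99 (-2.30 to 0.18) for RARα-KO. Inside cluster 10 the RARα-TG ratio was 2.18, from 184 against 40.7 CPM. Cxcr6 stood at 0.54 (0.11 to 0.96) for RARα-KO and 0.44 (0.05 to 0.84) for RARα-TG. The first was -0.17 with cells thinned and 0.94 inside cluster 10, and the second -0.90 (-1.98 to 0.03) inside cluster 10.

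The RARα-TG value of Ccr2, 0.32 (0.12 to 0.53), turned to -0.37 inside cluster 10; 64.7% of RARα-TG Foxp3-positive cells lay in cluster 14, the cluster richest in Ccr2. Past the fold were 1 higher and 1 lower of 5 in RARα-KO (9.01% and 11.1% of all genes) and 1 higher of 5 in RARα-TG (13.2% higher and 9.83% lower).

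In myeloid cells, the T cell receptors that appeared in RARα-KO sat in few barcodes. Cxcr6 was 42.2 CPM in RARα-KO against 8.39 in WT (2.33, 1.0 to 4.03), but 37 of its 42 UMIs were in the 11 myeloid barcodes that carried a T cell clonotype and 5 in the 152 without. All 13 Ccr8 UMIs were in 1 such barcode. T cell markers summed to 149, 567 and 110 CPM in myeloid cells. In RARα-TG myeloid cells, Cxcr4 (197 against 94.0 CPM, 1.07, 0.50 to 1.64) and Ccr2 (182 against 101 CPM, 0.86, 0.28 to 1.43) were higher than in WT. Cx3cr1 was 49.4 CPM (26.3 to 84.4) in RARα-TG, 21.8 (11.6 to 37.3) in WT and 8.04 (3.47 to 15.8) in RARα-KO. Hence 1 member was higher and 1 lower of 4 in RARα-KO, beside 13.6% and 13.4% of all genes, and 3 were higher of 3 in RARα-TG, beside 15.1% higher and 19.1% lower.

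RARα-KO and RARα-TG were also set against each other. In CD8 T cells, Cxcr6 (1.54, 1.31 to 1.79), Ccr2 (0.74, 0.30 to 1.23) and Cx3cr1 (2.89, 1.02 to 5.95) were past the fold upwards for RARα-KO and Cxcr4 (-0.98, -1.45 to -0.48) downwards, 3 higher and 1 lower of 6, beside 18.7% and 16.6% of all genes. Ccr8, low in both, was at -0.06 (-0.66 to 0.60). In Foxp3-negative CD4 T cells 2 were higher (Cxcr3 and Cxcr6) and 2 lower (Cxcr4 and Ccr8) of 5, beside 12.7% and 15.3% of all genes, Ccr8 being at -1.05 (-1.34 to -0.75). Among Foxp3-positive cells Cxcr3 was higher and Cxcr4 lower, 1 and 1 of 5, beside 11.3% and 15.6%, and in myeloid cells 1 was higher (Cxcr6) and 3 were lower (Cxcr4, Ccr2 and Cx3cr1) of 4, beside 25.5% and 20.8%.

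Clonotype size was the next axis: a clonotype is a set of T cells with the same receptor sequence, and its size was counted over all T cells of a genotype. Cxcr6 was higher in repeated than in single clonotypes of all 3 tumors in each class, and it passed the test in 2 of the 3 classes. In CD8 T cells of clonotypes with 1 cell against clonotypes with 2 or more, Cxcr6 was 264 against 665 CPM in WT, 449 against 753 in RARα-KO and 230 against 377 in RARα-TG. The repeated clonotypes were higher in 3 of 3 tumors, by 0.96 ± 0.18 on the log2 scale (edgeR, adjusted p = 0.0112). In RARα-TG, however, the repeated value came from 21 UMIs in 13 cells. Its interval of 234 to 577 CPM overlapped that of single clonotypes, 188 to 279.5 CPM.

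In Foxp3-negative CD4 T cells the values were 305 against 694, 303.4 against 998 and 468 against 552 CPM, again higher in 3 of 3, by 1.06 ± 0.23 (adjusted p = 0.0409). The RARα-TG intervals overlapped, at 393 to 552 CPM for single and 437 to 688 CPM for repeated clonotypes. In the 32 RARα-KO cells of clonotypes with 10 or more cells Cxcr6 reached 1316 CPM. In Foxp3-positive cells the values were 113 against 220, 169 against 258 and 154 against 235 CPM, and the difference of 0.69 ± 0.18 did not pass (adjusted p = 0.0710). Cxcr6 was the only member called in each of the first 2 classes, 1 higher of 5 tested, beside 0.416% of all genes higher and 0.688% lower in CD8 and 0.814% and 0.669% in Foxp3-negative CD4 T cells. No member of 5 was called in Foxp3-positive cells, where 0.374% and 0.421% of all genes were. Both calls depended on single tumors: the CD8 call was lost without the WT tumor (adjusted p = 1.0) and without the RARα-KO tumor (0.0700), and the CD4 call without the RARα-KO tumor (0.632). The CD4 call was also lost without cluster 6 (0.250). Without the tumor as a block, both were lost (adjusted p = 0.445 and 0.15).

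The other members did not pass in any class. Cxcr3 in single against repeated CD8 clonotypes was 77.4 against 40.4 CPM in WT, 114 against 61.2 in RARα-KO, but 90.3 against 108 CPM in RARα-TG, for -0.81 ± 0.21 (adjusted p = 0.0784). The RARα-TG value of repeated clonotypes came from 6 UMIs (39.6 to 235 CPM). Cxcr4 stood at -0.78 ± 0.34 (0.433) and Ccr8 at 0.74 ± 0.27 (0.304). Both were reversed in RARα-TG, where repeated clonotypes had few UMIs. Cxcr4 was 65.5 CPM in single and 126 in repeated RARα-TG clonotypes (7 UMIs), and Ccr8 45.1 and 18.0 CPM (1 UMI). The Ccr8 difference was seen in WT, with 60.7 CPM in single and 137 in repeated clonotypes, whereas RARα-KO had 30.3 and 37.3 CPM. Thus the lower Ccr8 of RARα-KO CD8 T cells was present in clonotypes of every size, at 30.3, 34.3 and 38.2 CPM for 1, 2 to 9 and 10 or more cells, against 60.7, 171 and 121 CPM in WT. Ccr2 was 36.4 and 50.2 CPM in single and repeated WT clonotypes and 123 and 118 CPM in those of RARα-KO (0.07 ± 0.22 for repeated against single, adjusted p = 0.972), so in RARα-KO it was above WT at both sizes. In RARα-TG Ccr2 was 79.0 and 35.9 CPM, the latter from 2 UMIs. Cx3cr1, not tested, was 6.07 and 29.9 CPM in WT and 13.3 and 25.1 CPM in RARα-KO.

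**Figure D4:**
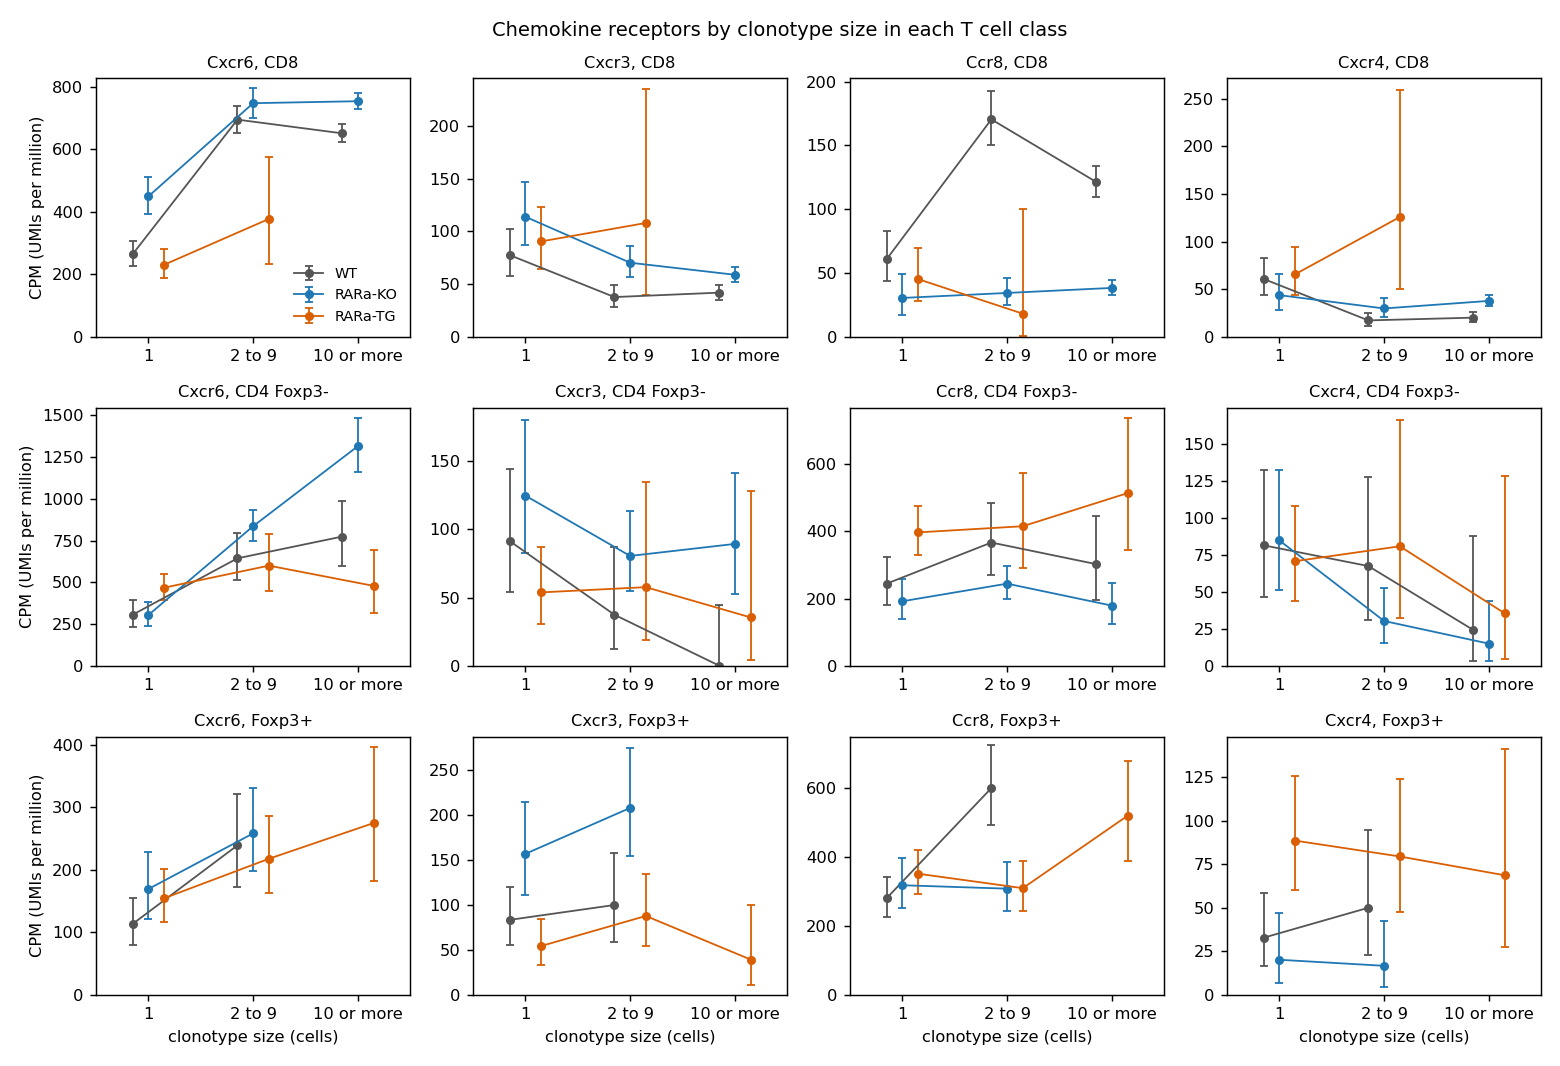
Level in CPM (vertical axis, from 0) of Cxcr6, Cxcr3, Ccr8 and Cxcr4 (columns) by clonotype size (horizontal axis) in the 3 T cell classes (rows), with lines for the genotypes and bars for exact Poisson 95% intervals; points with fewer than 10 cells are left out. Cxcr6 is lowest at size 1 in each panel, with 264 CPM in WT and 449 CPM in RARα-KO CD8 T cells.

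Single large clonotypes showed how uneven Ccr8 was among cells of 1 genotype. There were 9 WT, 10 RARα-KO and 0 RARα-TG CD8 clonotypes with 20 or more cells. The nucleotide sequences of the CDR3 of the β chain, the stretch that contacts antigen and identifies a clonotype, are shown for 3 WT and 2 RARα-KO clonotypes with low and high Ccr8, chosen after their values were seen, as the contig table gives them in reading direction; 54 of the 64, 39 of 39, 25 of 25, 113 of 113 and 70 of 72 CD8 cells carried the sequence shown.
WT clonotype of 64 CD8 cells: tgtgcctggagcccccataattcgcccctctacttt
WT clonotype of 39 CD8 cells: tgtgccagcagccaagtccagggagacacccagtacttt
WT clonotype of 25 CD8 cells: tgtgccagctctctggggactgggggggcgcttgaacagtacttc
RARα-KO clonotype of 113 CD8 cells: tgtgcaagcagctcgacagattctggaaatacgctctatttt
RARα-KO clonotype of 72 CD8 cells: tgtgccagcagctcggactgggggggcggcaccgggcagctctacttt

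The WT clonotype of 39 cells, 79.5% of which lay in the granzyme cluster 6, had Ccr8 at 190 CPM (145 to 245) and Cxcr3 at 6.44 CPM. The WT clonotype of 64 cells, with 40.6% in cluster 5, had Ccr8 at 42.8 CPM (23.4 to 71.8) and the highest Cxcr3 of the WT set, 131 CPM. In the WT clonotype of 25 cells no Ccr8 UMI was seen (interval up to 23.3 CPM), Cxcr6 was at its lowest, 285 CPM, and Ccr2 at its highest in WT, 171 CPM. Among WT clonotypes, then, Ccr8 ranged from 0 to 192 CPM. In RARα-KO the largest clonotype, of 113 cells, had Ccr8 at 3.94 CPM (1.07 to 10.1) and Cxcr6 at 575 CPM. The RARα-KO clonotype of 72 cells had Ccr8 at 139 CPM (105 to 181) and Cxcr6 at 888 CPM.

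The 2 sets overlapped for each receptor. Ccr8 spanned 0 to 139 CPM in RARα-KO, Ccr2 spanned 6.44 to 171 CPM in WT and 47.0 to 187 in RARα-KO, Cxcr6 285 to 829 and 487 to 1091 CPM, and Cxcr3 6.44 to 131 and 13.3 to 105 CPM. With every clonotype given equal weight, the RARα-KO against WT ratios in CD8 T cells were -1.61 (-2.22 to -1.05) for Ccr8, 1.66 (1.16 to 2.18) for Ccr2 and 0.44 (0.27 to 0.61) for Cxcr6, the directions they had when each cell counted. For Cxcr4 the equal-weight ratio was -0.10 (-0.75 to 0.53), against 0.57 when each cell counted.

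**Figure D5:**
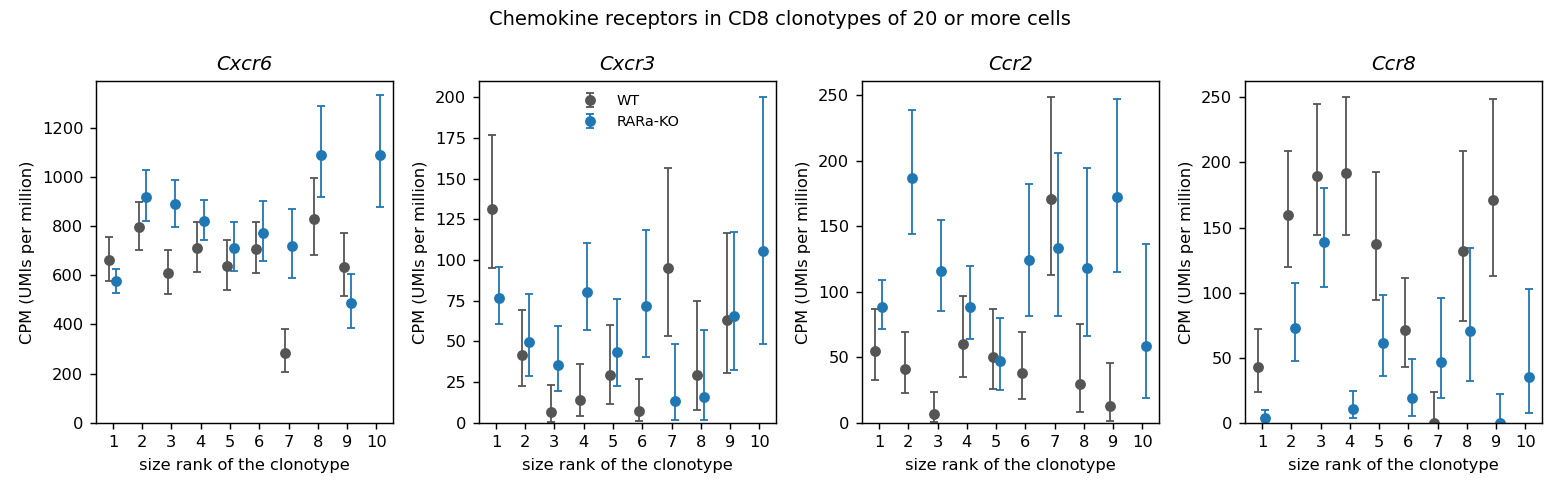
Level in CPM (vertical axis, from 0) of Cxcr6, Cxcr3, Ccr2 and Ccr8 in the CD8 clonotypes of 20 or more cells, ordered by size rank (horizontal axis), for WT (9 clonotypes) and RARα-KO (10 clonotypes), with exact Poisson 95% intervals. The first-ranked RARα-KO clonotype has Ccr8 at 3.94 CPM and the third-ranked at 139 CPM.

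How often receptors were seen in the same cell was set beside the product of their own shares, with cells thinned to 1000 UMIs and no test. Cxcr6 and Ccr8 were found in the same cell in 6.89% of WT CD8 T cells (product 5.08%), 8.42%, 8.98% and 10.8% of Foxp3-negative CD4 T cells (6.52%, 5.86% and 6.82%) and 2.29% of RARα-KO CD8 T cells (1.55%). In Foxp3-positive cells they were together in 5.88%, 1.27% and 4.0% (3.07%, 2.47% and 3.78%), below the product in RARα-KO. Cxcr3 and Cxcr6 were together less often than the product in 8 of 9 samples, from 2.70% against 2.92% in RARα-TG to 1.80% against 5.60% in RARα-KO Foxp3-negative CD4 T cells, and in RARα-TG CD8 T cells in 1.80% against 1.53%. Ccr2 and Ccr8 were together in 9.24%, 7.59% and 11.3% of Foxp3-positive cells, beside products of 9.42%, 6.51% and 11.4%.

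The genes whose log2 CPM followed each member most closely over the 12 samples of class and genotype, among 9110 genes with 100 or more UMIs, are given as a description, since these samples share 1 library and their class structure. Ccr8 was closest to Pkp3, Rora and Tnik (Pearson's r of 0.98, 0.98 and 0.98), Cxcr6 to Il18r1, Cblb and Cd3g (0.98, 0.98 and 0.97), and Cxcr3 to Smarcc1, Prrc2a and Acap1 (0.98, 0.98 and 0.98). Ccr2 was closest to Zfp36l1, Gpr146 and N4bp1 (0.95, 0.95 and 0.93), Cxcr4 to Plekhf2, Coro1c and Blcap (0.90, 0.89 and 0.89) and Cx3cr1 to Napsa, Nfu1 and Cox5b (0.89, 0.85 and 0.82). Il18r1, a chain of the interleukin-18 receptor, and Cd3g, a chain of the T cell receptor complex, are T cell genes.

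Other chemokine receptor genes were read from a list of 17, few of which were high enough for the test between classes. Ccr3, the eotaxin receptor, was higher in Foxp3-positive than in Foxp3-negative CD4 T cells by 2.32 ± 0.44 (log2, SE, adjusted p = 0.00670), as was Ccrl2 by 1.70 ± 0.36 (0.0128). Ccr7, which guides naive T cells to lymph nodes, was lower, at -1.41 ± 0.34 (0.0247). In CD8 against Foxp3-negative CD4 T cells Ccr4, Ccr3 and Ccr7 were lower, in CD8 against Foxp3-positive cells Ccrl2, Ccr4, Ccr1 and Ccr3 were lower, and in myeloid against T cells Ccrl2 and Ccr1 were higher and Ccr4, Ccr3 and Ccr7 lower. Repeated clonotypes had less Ccr7 in CD8 T cells (-0.77 ± 0.15, adjusted p = 0.0207) and in Foxp3-positive cells (-1.16 ± 0.26, 0.0192). The latter call was lost with DESeq2 and without the tumor as a block, where no gene of that contrast was called (67 and 254 genes at an unadjusted p below 0.05). By genotype, Ccr7 was 310, 141 and 133 CPM in CD8 T cells, and 656, 212 and 830 CPM in Foxp3-negative CD4 T cells. In RARα-KO CD8 T cells Ccr4, Ccr7 and Ccrl2 were past 1.5-fold downwards against WT, beside 6.69% of all genes. In RARα-TG CD8 T cells Ccr1, Ccr7 and Ccrl2 were, beside 17.7% of all genes, so Ccr7 and Ccrl2 were lower in both.

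Ligands of the 6 receptors came mainly from outside the T cells. Of 8 ligand genes tested, 7 were higher in myeloid cells than the T cell mean, where 26.9% of all genes were higher and 24.1% lower. Among them were Ccl2, Cxcl9 and Cxcl16, at differences of 10.4 ± 0.27, 9.83 ± 0.33 and 9.04 ± 0.25 on the log2 scale (adjusted p = 3.14e-12, 2.59e-11 and 4.75e-12). Ccl1, a ligand of Ccr8, was lower in myeloid cells, at -4.14 ± 1.59 (adjusted p = 0.0428). Cxcl10 was 1844 CPM in WT, 681 in RARα-KO and 0 of 263403 UMIs in RARα-TG myeloid cells (interval up to 14.0 CPM), and Cxcl9 was 513, 193 and 26.6 CPM. In dendritic cells (47, 39 and 21) Cxcl10 was 799, 1103 and 0 CPM and Cxcl9 306, 1012 and 0 CPM. Of these cells, 21, 30 and 8 lay in cluster 13 and 26, 9 and 13 in cluster 16, and the part of this mix in the ligand levels was not tested. In myeloid and in dendritic cells the 2 ligands of Cxcr3 were lowest in RARα-TG, whereas Cxcl10 in Foxp3-positive cells was 65.0, 115 and 65.3 CPM.

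Cxcl16, the ligand of Cxcr6, was 500, 558 and 254 CPM, and Ccl8, a ligand of Ccr8, 203, 373 and 49.4 CPM in myeloid cells. Ccl2 was 1279, 1283 and 1063 CPM there and 1420, 876 and 1318 CPM in the MC38 or stromal cluster. Ccl1 was a T cell transcript, at 806, 24.0 and 214 CPM in Foxp3-negative CD4 T cells and 140, 45.9 and 8.30 CPM in CD8 T cells. Few cells carried it: the 354 UMIs of WT Foxp3-negative CD4 T cells were in 8 cells and the 786 of WT CD8 T cells in 72. The RARα-KO against WT ratio of Ccl1 was -1.61 (-1.79 to -1.43) in CD8 T cells and -5.07 (-5.78 to -4.44) in Foxp3-negative CD4 T cells. Among T cells, Cxcl10 and Ccl1 could be tested: Foxp3-positive cells had more Cxcl10 and less Ccl1 than Foxp3-negative CD4 T cells, and CD8 T cells less Cxcl10 than Foxp3-positive cells. Cxcl10 was also lower in repeated CD8 and Foxp3-positive clonotypes, the latter again not with DESeq2 or without the block. Repeated Foxp3-negative CD4 clonotypes had more Ccl1, by 2.24 ± 0.36 (adjusted p = 0.00967). Without cluster 6 this call was lost, since edgeR then called 0 of 3290 genes (289 at an unadjusted p below 0.05). Cxcl12, the ligand of Cxcr4, had at most 1 UMI in a sample of any class given here.

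Of 13 genes of receptor signalling (G protein subunits, regulators of G protein signalling, arrestins and receptor kinases), 11 could be tested between classes. None passed between the 2 CD4 classes (5.45% of all genes higher and 4.2% lower), and 1 was higher in CD8 than in Foxp3-negative CD4 T cells (Rgs3, beside 2.88% of all genes). In CD8 against Foxp3-positive cells 3 were higher (Rgs16, Rgs3 and Grk6) and 1 lower (Rgs10), beside 11.2% and 12.6%. In myeloid cells 5 were higher (Rgs1, Arrb1, Rgs10, Gnai2 and Arrb2) and 3 lower than the T cell mean, beside 26.9% and 24.1%. Rgs1, which dampens chemokine receptor signals, was 204, 318 and 538 CPM in CD8 T cells, with ratios of 0.64 (0.54 to 0.74) and 1.40 (1.22 to 1.58) against WT. No gene of this list passed between repeated and single clonotypes in any class.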

How the data were processed

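Per the labels and methods, hashtagged tumor cells of the 3 genotypes were pooled, as sorted T cells mixed with unsorted cells, in 1 droplet library with T cell receptor enrichment. The authors aligned reads with Cell Ranger (6.1.0 per the submitters' processing notes) to GRCm38/mm10 and deposited raw counts of UMIs, without normalization, with hashtag counts and a table of receptor contigs. A second contig file was not used.

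The deposited counts held 730308 barcodes and 46394322 gene UMIs, so cells were called anew with the 2 steps of Cell Ranger (3000 expected cells, then barcodes of 500 or more UMIs at a false discovery rate of 0.01), which gave 5586 cells, fewer than the study states. HTODemux of Seurat 5.3.0 assigned genotypes, removing 426 doublets and 230 negatives. Doublets within a genotype were not removed. Total gene UMIs of the cells were 17768730, 16292445 and 4011140 in the order WT, RARα-KO, RARα-TG. Cells were clustered with scanpy 1.11.5 (2000 variable genes, 30 components, resolution 1) without the 6 members, other chemokine receptors and their ligands. Of 3955 T cells, 2857 fell in a class. The Foxp3 gate depends on depth, since a cell with few UMIs may hold none of Foxp3.

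CPM are UMIs per 1000000 gene UMIs of a sample's class, with exact Poisson 95% intervals and exact binomial intervals for ratios and shares; they cover counting error only, and cells of 1 clonotype are not independent. Thinning drew 1000 UMIs per cell, which left out 23 cells. With 3 or fewer UMIs in both samples no ratio is given. Class and clonotype size tests used edgeR 4.0.16 (quasi-likelihood, TMM, filterByExpr) in R 4.3.3 with the tumor as a block, since profiles of 1 tumor come from the same animals; DESeq2 1.42.0 was an alternative. Python 3.11.15 was used with scipy 1.17.1, numpy 2.4.6 and pandas 2.3.3. On simulated data, the edgeR test found 65% of 2-fold and 100% of 4-fold changed genes for Foxp3-positive against Foxp3-negative CD4 T cells (6557 genes), intervals held the true ratio for 95.7% of 10481 genes (CD8 T cells, RARα-KO against WT), and 99.67% of simulated singlets got their own hashtag.

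The members, the lists of 17 other receptors, 11 ligands (Cxcl11 had no row of its own in the counts used here) and 13 signalling genes, and the tests were chosen with earlier results of these data known; results of 1 gene of the receptor list are not reported here. Named genes are all members, the list genes past the test and the 3 genes most like each member; Ccr7, Ccl1, Cxcl9, Cxcl10, Cxcl16, Ccl2, Ccl8 and Rgs1 by genotype were chosen after their values were seen.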

Additional observations from a re-analysis of the deposited data

Results flagged for a closer look

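For 4 receptors the genotype difference went in opposite directions in different cell classes, with counting intervals clear of 0 on both sides. With 1 sample per genotype, the difference between classes was not tested. Cxcr6 in RARα-TG against WT had a log2 ratio of -1.32 in CD8 T cells and 0.44 in Foxp3-positive cells, but 1.70 inside cluster 3 of the CD8 T cells and -0.90 (-1.98 to 0.03) inside cluster 10 of the Foxp3-positive cells. Ccr8 in RARα-TG against WT was -1.69 in CD8 T cells and 0.57 in Foxp3-negative CD4 T cells. Ccr2 in RARα-KO against RARα-TG was 0.74 in CD8 T cells, -0.41 in Foxp3-positive cells and -0.93 in myeloid cells. Foxp3-positive cells lay mostly in cluster 10 for RARα-KO (92.4%) and in cluster 14 for RARα-TG (64.7%), and inside cluster 10 Ccr2 went the other way, at 568 CPM for RARα-KO against 460 for RARα-TG. Cx3cr1 in RARα-KO against RARα-TG was 2.89 in CD8 T cells, from 200 and 2 UMIs, and -2.62 in myeloid cells, from 8 and 13 UMIs.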

How the results depend on the processing

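Every genotype value rests on 1 sample, and every test on 3 tumors of 3 genotypes. Of 632 fold changes of members under alternatives, 600 kept their side of the threshold, 18 passed newly and 14 no longer passed. Differences below the threshold could change sign within the 600, as Cxcr6 in CD8 against Foxp3-negative CD4 T cells did (-0.36 to 0.31). Of 395 genotype ratios, 363 stayed inside the interval of the main value. The RARα-TG against WT ratio of Cxcr3 in CD8 T cells turned to -0.054 (-1.33 to 1.01) when cells were thinned; the cause was not tested. Ratios under the fold that changed sign included Cxcr6 in RARα-KO Foxp3-positive cells (-0.17 thinned) and Cxcr4 in RARα-KO CD8 T cells (-0.10 with equal weight per clonotype). The alternatives chosen after seeing the data were leaving out T cell clusters with a natural killer marker, and leaving out myeloid cells with a clonotype.

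Members past the fold went from 2 to 4 in RARα-KO CD8 T cells without clusters 2 and 5, and from 5 to 3 in RARα-TG CD8 T cells when thinned. In Foxp3-negative CD4 T cells they went from 3 to 0 at 2-fold and with equal weight per clonotype in RARα-KO, and from 0 to 2 thinned and 1 with equal weight in RARα-TG. In Foxp3-positive cells they went from 2 to 1 at 2-fold, with a minimum of 100 UMIs or thinned in RARα-KO, and from 1 to 0 with a minimum of 100 UMIs in RARα-TG. In myeloid cells they went from 2 to 0 with a minimum of 100 UMIs, and to 1 with T cells taken by clonotype alone, thinned, or without cells with a clonotype in RARα-KO, and from 3 to 1 thinned in RARα-TG. For RARα-KO against RARα-TG they went at 2-fold from 4 to 2 in CD8 T cells, from 4 to 1 in Foxp3-negative CD4 T cells and from 4 to 2 in myeloid cells. Thinned they were 3, 2, 1 and 2 in CD8, Foxp3-negative, Foxp3-positive (2 before) and myeloid cells, with equal weight 2 in Foxp3-negative cells, and with a minimum of 100 UMIs 1 in Foxp3-positive and 2 in myeloid cells.

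Members called between Foxp3-positive and Foxp3-negative CD4 T cells were 2, and 3 without clusters 2 and 5 and 1 to 2 with a tumor left out. Between CD8 and Foxp3-negative CD4 T cells they were 1, and 2 with DESeq2, thinned or without clusters 2 and 5, 3 with no filter on low counts, and 1 to 2 with a tumor left out. Between CD8 and Foxp3-positive cells they were 3, and 4 thinned or without clusters 2 and 5, 5 with no filter and 3 to 5 with a tumor left out. For repeated CD8 clonotypes they were 1, and 3 with no filter or equal weight, 2 with Cd8b1 in the gate or sizes of 5 or more, 0 thinned, drawn down to 655 T cells or without the replicate block, and 0 to 4 with a tumor left out. For repeated Foxp3-negative CD4 clonotypes they were 1, and 0 with DESeq2, without the replicate block, without cluster 6, with equal weight or drawn down, and 0 to 2 with a tumor left out. The fit without the replicate block, that is, without the pairing of classes by tumor, changed no other count of members called. In counts over all genes (higher and lower), 367 were higher and 283 lower in Foxp3-positive than in Foxp3-negative CD4 T cells, 507 and 507 with no filter, 215 and 174 without the block, 134 and 124 thinned, 68 and 87 without the WT tumor and 107 and 117 without the RARα-KO tumor. For CD8 against Foxp3-negative CD4 T cells 194 and 316 became 436 and 545 with no filter, 123 and 191 without the block, 115 and 124 thinned, and 35 and 95 or 87 and 170 without the WT or the RARα-KO tumor. For CD8 against Foxp3-positive cells 754 and 851 became 322 and 436 or 450 and 577 without those tumors, and the lower genes became 319 thinned; for myeloid cells 1963 and 1762 became 642 and 569 thinned. For repeated CD8 clonotypes 26 and 43 became 7 and 11 with DESeq2, 66 and 91 with no filter, 0 and 4 without the block, 2 and 9 without the WT tumor and 124 and 117 without the RARα-TG tumor. For Foxp3-negative CD4 clonotypes 28 and 23 became 8 and 3 with DESeq2, 77 and 88 with no filter, 3 and 1 without the block, 0 and 0 without cluster 6 (289 genes at an unadjusted p below 0.05), 0 and 1 drawn down, 2 and 3 without the RARα-KO tumor and 105 and 120 without the RARα-TG tumor. For Foxp3-positive clonotypes 16 and 18 in edgeR became 36 and 48 with no filter, and 0 and 0 without the block (254 genes at an unadjusted p below 0.05) and with DESeq2 (67 genes). Equal weight per clonotype was not run for myeloid cells, which have none.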
